A study of Mus musculus with 3 samples.

Results

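The Moxd1 nuclei of the basolateral amygdala (BLA) were 151 GABAergic nuclei, 59 in library 2 and 92 in library 3, among 1646 GABAergic nuclei of these libraries and 9199 barcodes of all 3 libraries. They were selected on *Moxd1* itself: at least 2 unique molecular identifiers (UMIs, each standing for 1 captured RNA molecule) of *Moxd1* and fewer than 3 of *Foxp2*. A nucleus counted as GABAergic with at least 1 UMI of *Gad1* or *Gad2*, none of *Slc17a7* or *Slc17a6*, and less than 0.1% of its UMIs from *Slc1a2* and *Slc1a3*. All libraries came from single-nuclei RNA sequencing (snRNAseq) of BLA dissected from wild-type male C57BL/6NRj mice at postnatal day 56, with no second condition. Each dataset pooled both hemispheres of 4 brains of littermates, so a library is a pool and not an animal. The p-values rest on library sums, with a spread borrowed from all genes. They measure neither the spread between animals nor how far the libraries differ for a single gene. The labels do not say whether the libraries came from separate pools. The Moxd1 nuclei made up 9.75% of the GABAergic nuclei in library 2 (Clopper-Pearson 95% confidence interval 7.51 to 12.4) and 8.84% in library 3 (7.18 to 10.7).

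GABAergic neurons are the inhibitory neurons of the BLA and act on its glutamatergic principal neurons and on each other. Most of them are born in the ganglionic eminences of the embryo. Neurons from the medial ganglionic eminence (MGE) rely on the transcription factors Lhx6 and Sox6 and later include the Sst and Pvalb interneurons, while those from the caudal ganglionic eminence (CGE) carry factors such as Prox1 and Nr2f2 and include the Vip and Lamp5 interneurons. In rodents, the calcium-binding protein calbindin, encoded by *Calb1*, is found in many Pvalb and Sst interneurons of the BLA. *Moxd1* encodes a copper-dependent monooxygenase of the family of dopamine beta-hydroxylase.

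The genes that name these nuclei lie on 5 chromosomes of GRCm38. *Moxd1* (ENSMUSG00000020000) spans chr10:24223517-24302790, *Calb1* (ENSMUSG00000028222) chr4:15881264-15908064, *Tmem132c* (ENSMUSG00000034324) chr5:127241808-127565793, *Tmem44* (ENSMUSG00000022537) chr16:30511855-30550842 and *Rnf144b* (ENSMUSG00000038068) chr13:47122656-47247991, all annotated as protein-coding. As sequences of the group, the 250 bases before the RefSeq start of *Moxd1* (chr10:24223267-24223516, plus strand) and of *Tmem44* (chr16:30550579-30550828, minus strand) are shown 5′ to 3′, from RefSeq on GRCm38.p6. They were searched on both strands for ACAAT, the core bound by SOX factors, since *Sox6* was present in all Moxd1 nuclei, and for TAATTA, a core bound by LIM homeodomain factors such as Lhx6. Capitals mark a match, here the reverse complement of ACAAT in *Tmem44*.
Moxd1: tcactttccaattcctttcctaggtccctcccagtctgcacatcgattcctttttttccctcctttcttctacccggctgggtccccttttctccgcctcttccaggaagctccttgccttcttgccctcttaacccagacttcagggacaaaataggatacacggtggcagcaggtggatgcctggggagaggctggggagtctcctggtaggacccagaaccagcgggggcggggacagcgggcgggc
Tmem44: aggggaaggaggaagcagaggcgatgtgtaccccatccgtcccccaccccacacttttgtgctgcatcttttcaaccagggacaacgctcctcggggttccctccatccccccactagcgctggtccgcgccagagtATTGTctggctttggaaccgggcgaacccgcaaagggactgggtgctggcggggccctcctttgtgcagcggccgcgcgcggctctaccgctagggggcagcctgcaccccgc
ACAAT was in 27.7% and TAATTA in 4.84% of 32851 such windows of the mouse genome. Neither was in the windows of *Moxd1*, *Tmem132c* or *Rnf144b*, which says only that these letters are not in these bases.

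Library 1 held no Moxd1 nucleus. It had 819 barcodes, of which 19 were GABAergic by these criteria, so that a count of 0 allows a share of up to 15.8% when taken as 3 counts, or 17.6% by the Clopper-Pearson upper limit. It stood apart from the others in its neurons, with *Slc17a7*, the vesicular glutamate transporter of most BLA principal neurons, in 84.6% of its barcodes against 24.3% in library 2 and 15.7% in library 3. Libraries 2 and 3 had 3792 and 4588 barcodes, of which 3772 and 4512 had more than 200 genes and less than 20% mitochondrial UMIs. The libraries held 8078394, 24354374 and 33049068 UMIs in all. Libraries 2 and 3 shared 7 barcodes, none of them a Moxd1 nucleus. The Moxd1 nuclei were deep: their median was 10364 UMIs (library 2) and 8229.5 (library 3), against 5905 and 6222 over all GABAergic nuclei. Each was therefore set beside 3 GABAergic nuclei of its own library without a *Moxd1* UMI and of similar depth.

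The rule left out other barcodes with *Moxd1*. In libraries 2 and 3 together, 249 barcodes had at least 2 *Moxd1* UMIs, which the criteria, applied in turn, reduced to the Moxd1 nuclei. Of these barcodes, 21 lacked *Gad1* and *Gad2*, and of those left at each step 48 had a UMI of *Slc17a7* or *Slc17a6*, 8 exceeded the limit on *Slc1a2* and *Slc1a3*, and 21 had at least 3 *Foxp2* UMIs. Within the Moxd1 nuclei, the number of *Moxd1* UMIs ran from 2 to a median of 4 and a maximum of 29 in library 2, and to a median of 3 and a maximum of 12 in library 3. Just inside the threshold, at 2 UMIs, were 15 and 29 nuclei. Just outside it, at 1 UMI and with fewer than 3 *Foxp2* UMIs, were 30 and 28 GABAergic nuclei. *Moxd1* measured 473 and 452 UMIs per 1e6 UMIs of the summed nuclei (CPM) in the Moxd1 nuclei of libraries 2 and 3, against 1.19 and 2.52 in glutamatergic nuclei. These values describe the selection and carry no test.

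The 4 other marker genes were each found in most Moxd1 nuclei. They were listed with earlier results of these data known, so their values are a description. *Calb1* had a UMI in 83.1% of the Moxd1 nuclei of library 2 (Clopper-Pearson 71 to 91.6) and 92.4% of library 3 (84.9 to 96.9). *Tmem132c*, a membrane protein, was in 76.3% and 68.5%, *Tmem44*, another membrane protein, in 78% and 66.3%, and *Rnf144b*, an E3 ubiquitin ligase, in 61% and 57.6%. Among nuclei without *Moxd1* and with fewer than 3 *Foxp2* UMIs, called Moxd1-zero Foxp2-low nuclei, the shares were 20.9% and 22.1% for *Calb1*, 16.9% and 16.3% for *Tmem132c*, 12.4% and 15.6% for *Tmem44* and 20.9% and 19.9% for *Rnf144b*. Those nuclei remained shallower after matching, with medians of 7280 and 6922.5 UMIs. After each nucleus was thinned to 4400 UMIs, *Calb1* was in 73.6% and 74.7% of the Moxd1 nuclei and 14.7% and 16.4% of the Moxd1-zero Foxp2-low nuclei, and *Rnf144b* in 34% and 39.8% against 14% and 10.5%.

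The markers were rare in oligodendrocyte nuclei, which should lack them. In these nuclei, which were shallower (medians 2850 and 1917 UMIs), *Calb1* was in 2.56% and 0% and *Tmem132c* in 1.28% and 2.41%. In the deeper glutamatergic nuclei (15525.5 and 13115 UMIs), *Calb1* was in 22.7% and 23.6%, *Rnf144b* in 12.6% and 19.7%, *Tmem132c* in 7.23% and 9.13% and *Tmem44* in 8.47% and 6.25%. At least 3 of the 4 genes were found together in 71.2% and 66.3% of the Moxd1 nuclei, against 6.78% and 7.97% of the Moxd1-zero Foxp2-low nuclei. *Calb1* had a UMI in 49 of 59 and 85 of 92 Moxd1 nuclei, so the label held for most but not all of them.

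**Figure D1:**
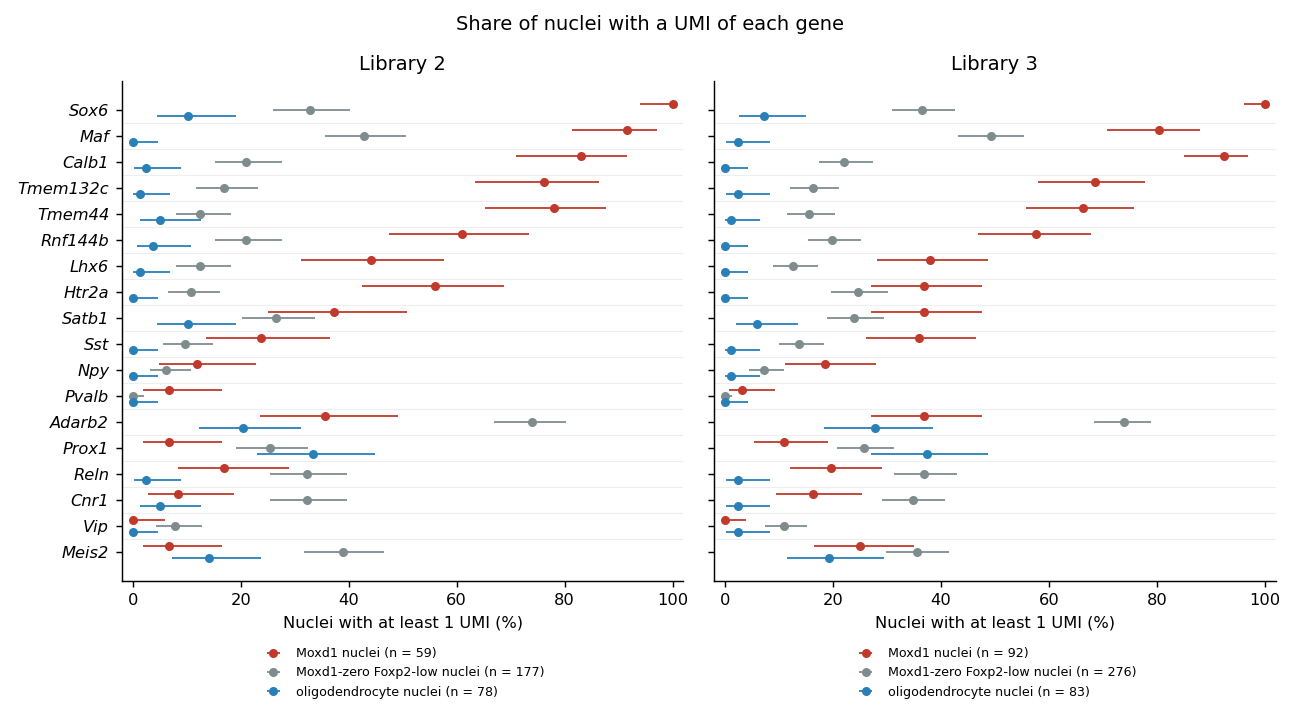
Share of nuclei with at least 1 UMI of each gene (horizontal axis, percent) in Moxd1 nuclei (red), Moxd1-zero Foxp2-low nuclei (grey) and oligodendrocyte nuclei (blue) of libraries 2 and 3, with Clopper-Pearson 95% confidence intervals that cover counting error only. *Sox6* was in all Moxd1 nuclei of both libraries and *Vip* in none, while *Adarb2* was in 35.6% and 37% of them against 74% and 73.9% of the grey group.

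The markers were more frequent in nuclei with any *Moxd1* UMI than in those with none, which is a description, since *Moxd1* chose the nuclei. With no *Moxd1* UMI, *Calb1* was in 16.4% of the nuclei of library 2 and 18.9% of library 3, taken over all nuclei with fewer than 3 *Foxp2* UMIs. With 1 UMI, below the threshold, it was in 46.7% and 71.4%, and with 2 UMIs in 80% and 96.6%. *Sox6* went from 29.1% and 34.2% over 73.3% and 85.7% to every nucleus with 2 or more. The nuclei with 1 UMI thus lay between the others for both genes in both libraries. From 1 UMI upward the shares did not always rise, since *Tmem44* was in 53.6% at 1 and 44.8% at 2 in library 3 and *Rnf144b* in 60% at 2 and 33.3% at 3 in library 2. Depth differed between these nuclei, with medians of 4232 and 5550 UMIs at 0, 5256 and 6224 at 1, and 12426 and 10975 at 4 or more. After thinning to 4400 UMIs, the mean number of the 4 markers per nucleus at 0, 1, 2, 3 and 4 or more *Moxd1* UMIs was 0.503, 2.11, 2.18, 1.88 and 2.29 in library 2. In library 3 it was 0.523, 2.29, 1.96, 1.94 and 2.33. At equal depth, the nuclei with 1 *Moxd1* UMI thus had about as many markers as those above the threshold.

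**Figure D2:**
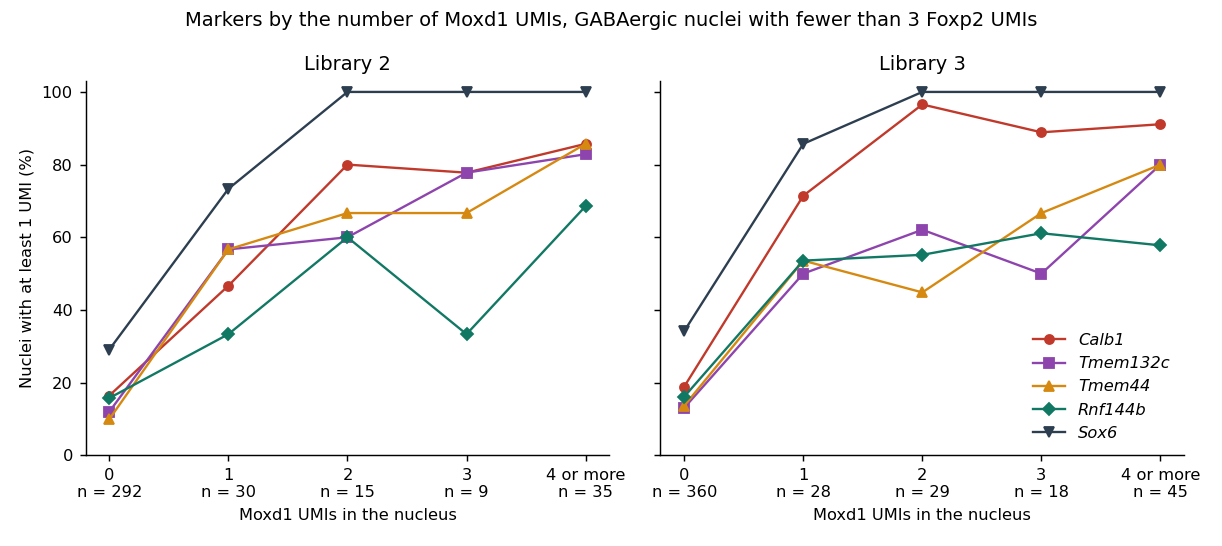
Share of nuclei with at least 1 UMI of *Calb1*, *Tmem132c*, *Tmem44*, *Rnf144b* and *Sox6* (vertical axis, percent) by the number of *Moxd1* UMIs in the nucleus (horizontal axis, with the number of nuclei) in libraries 2 and 3, among GABAergic nuclei with fewer than 3 *Foxp2* UMIs. All 5 genes were lowest at 0 *Moxd1* UMIs in both libraries, and *Sox6* reached 100% at 2.

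The main comparison asked how the Moxd1 nuclei differed from other GABAergic neurons of the dissection once *Foxp2*-rich nuclei were set aside. UMIs were summed over the Moxd1 nuclei and over the Moxd1-zero Foxp2-low nuclei of each library, and 8834 genes were tested with edgeR, with the library as a block. In the Moxd1 nuclei, 471 genes were higher (5.33% of those tested) and 758 lower (8.58%) at an adjusted p under 0.05. Of these 1229 genes, 1224 moved the same way in both libraries, which is no separate check, since the calls came from the same libraries. The median of all genes tested was -0.02 on the log2 scale. Values below are CPM in library 2 and then library 3, and log2 fold changes with their standard error (SE). The number of called genes depended on the test, since DESeq2 called 116 higher and 189 lower, all of them among the edgeR calls, and genes that only edgeR called are named as such.

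**Figure D3:**
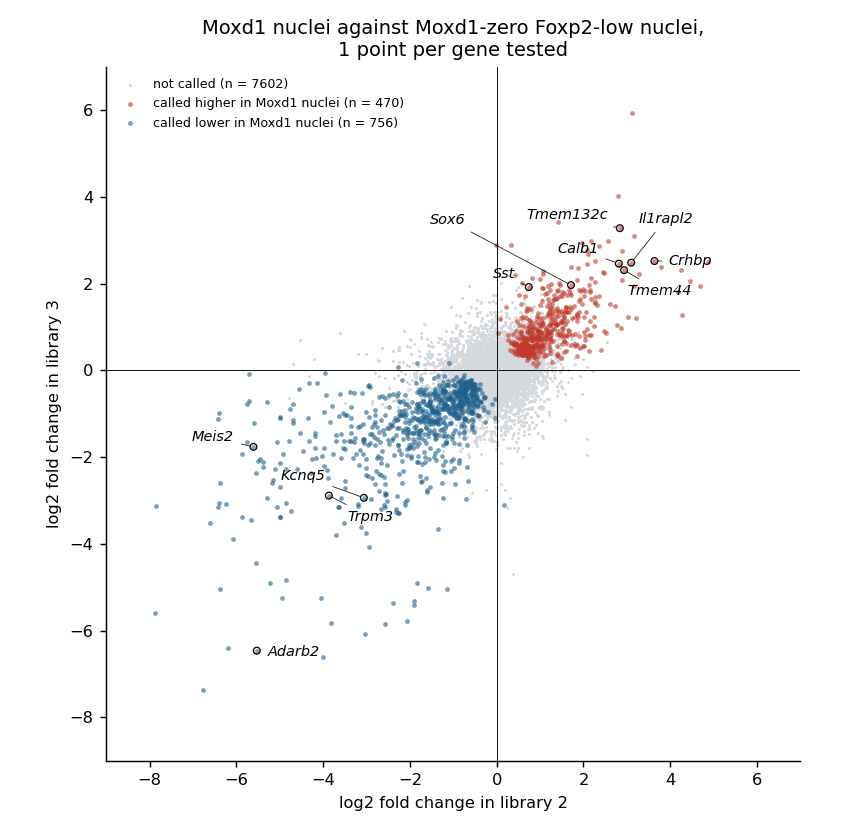
Log2 fold change of each gene tested in library 2 (horizontal axis) and library 3 (vertical axis), Moxd1 nuclei against Moxd1-zero Foxp2-low nuclei, without the genes that selected the nuclei. Red and blue points are genes called higher and lower by edgeR at an adjusted p under 0.05. The labelled genes had the same sign in both libraries, which the naming rule required of those named by size.

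Transcription factors of the MGE lineage were higher in the Moxd1 nuclei. *Sox6* measured 1474 and 1788 CPM in the Moxd1 nuclei and 449 and 459 in the Moxd1-zero Foxp2-low nuclei (log2 fold change 1.82 ± 0.14, adjusted p = 1.5e-34, edgeR). *Maf*, a bZIP factor of MGE interneurons, measured 515 and 415 against 140.1 and 177 (1.52 ± 0.16, adjusted p = 1.4e-19). *Lhx6* measured 70.6 and 57.9 against 29.1 and 20 (1.39 ± 0.26) and was called by edgeR only (DESeq2 adjusted p = 0.13). Both libraries of Moxd1 nuclei lay above both libraries of the comparison for these 3 genes. Of the 7 MGE factors listed, 5 were tested, and 4 were higher and none lower, with a median of 1.52. *Satb1*, a chromatin organiser of Sst and Pvalb interneurons, was in 37.3% and 37% of the Moxd1 nuclei and was not called (0.36 ± 0.19). *Nkx2-1*, which specifies the MGE in the embryo, was in 1.69% and 2.17% and too low to be tested.

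Genes of the CGE lineage were lower. *Adarb2*, a member of the RNA-editing deaminase family and a marker of CGE interneurons, measured 158 and 90.2 CPM in the Moxd1 nuclei against 7321 and 7991 (-6.00 ± 0.17, adjusted p = 1.8e-259, edgeR). The level in the Moxd1 nuclei was near that of cell types outside the lineage, with 119 and 201 CPM in oligodendrocyte and 198 and 383 in glutamatergic nuclei. *Prox1* measured 11.3 and 17.8 against 78 and 71.5 (-2.34 ± 0.30), and *Nr2f2* 5.65 and 17.8 against 27.1 and 36.6 (-1.42 ± 0.37, called by edgeR only, -2.18 in library 2 and -1.02 in library 3). *Npas1*, a bHLH factor, had 2 UMIs in all Moxd1 nuclei against 149 in the comparison nuclei, a ratio of CPM of 0.0323 (95% counting interval 0.00387 to 0.119). All 4 of the 6 listed genes that could be tested were lower, with a median of -3.63.

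The classical interneuron classes were represented unevenly. *Vip*, a neuropeptide, had no UMI in any Moxd1 nucleus against 109 in the comparison nuclei, at least 15.1-fold lower when 0 is taken as 3 UMIs over the group. *Lamp5*, which marks neurogliaform-type neurons, had 1 UMI against 55, a ratio of 0.0437 (0.00109 to 0.254), and was called by edgeR, with no adjusted p from DESeq2. *Reln*, a secreted glycoprotein, measured 76.3 and 57.9 CPM against 449 and 423 (-2.73 ± 0.19), and *Cnr1*, the cannabinoid receptor of Cck interneurons, 15.5 and 25.6 against 124 and 139.5 (-2.67 ± 0.24). *Cck* itself was in 1.69% and 3.26% of the Moxd1 nuclei and lower by edgeR only (-3.30 ± 0.57). Of the 9 class genes, 8 were tested, of which 2 (*Sst* and *Htr2a*) were higher and 6 lower by edgeR, while DESeq2 called none higher and 3 lower, and after thinning 1 kept its higher and 3 their lower call.

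*Sst*, *Pvalb* and *Htr2a* were checked one by one. *Sst*, the peptide somatostatin, was in 23.7% and 35.9% of the Moxd1 nuclei at 72 and 161 CPM, against 9.6% and 13.8% at 43 and 42.5 CPM in the comparison nuclei (1.44 ± 0.20, adjusted p = 2.7e-11 with edgeR and 0.055 with DESeq2). Its log2 fold change was 0.74 in library 2 and 1.92 in library 3. The Moxd1 nuclei held 31.8% and 32.0% of all GABAergic nuclei with a *Sst* UMI. *Htr2a*, a serotonin receptor, was in 55.9% and 37% at 94.6 and 73.5 CPM, against 10.7% and 24.6% at 21.1 and 54 CPM (1.11 ± 0.22, adjusted p = 1.5e-05, edgeR). Its difference was uneven, 2.14 in library 2 and 0.44 in library 3, and the call was lost with DESeq2 (adjusted p = 0.23), without the block (0.053), with 1 comparison nucleus per Moxd1 nucleus (0.081) and after thinning (0.17).

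*Pvalb*, the parvalbumin gene of fast-spiking interneurons, was hardly detected anywhere. It had 4 UMIs in 4 Moxd1 nuclei of library 2 (6.78%, Clopper-Pearson 1.88 to 16.5) and 3 UMIs in 3 of library 3 (3.26%, 0.678 to 9.23). In each library, no matched nucleus of the comparison had one (0 of 177, which allows a share of up to 1.69%, and 0 of 276, up to 1.09%), nor did any glutamatergic or oligodendrocyte nucleus. The matched nuclei were shallower than the Moxd1 nuclei (medians 7280 and 6922.5 UMIs). Before matching, 1 of 360 Moxd1-zero Foxp2-low nuclei of library 3 had a *Pvalb* UMI. Over all GABAergic nuclei, 5 in library 2 and 6 in library 3 had a *Pvalb* UMI, of which 4 and 3 were Moxd1 nuclei. The gene did not pass the filter on low counts and was not tested.

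The genes named by size of the difference, among those in at least 20% of the nuclei of the higher class in both libraries, were led on the higher side by the long noncoding RNA *Gm31218* (76.3 and 101 against 10.6 and 5.96 CPM, 3.48 ± 0.30). The 4 markers were also among the highest 15. *Il1rapl2*, a synaptic receptor of the interleukin-1 receptor family, measured 3512 and 3568 against 409 and 640.3 CPM (2.76 ± 0.14). *Sema3a*, a secreted guidance cue found in perineuronal nets, measured 431 and 317 against 44.3 and 67.6 (2.68 ± 0.18). *Nxph2*, a neurexophilin that binds neurexins, measured 112 and 94.7 against 4.63 and 22.5 (2.81 ± 0.26, called by edgeR only, 4.46 in library 2 and 2.06 in library 3), and *Ndst4*, an enzyme of heparan sulfate synthesis, 411 and 613 against 105 and 79.6 (2.46 ± 0.17). For these 5 genes, both libraries of Moxd1 nuclei were above both of the comparison.

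The set held 6 other genes. *Crhbp*, which binds and buffers corticotropin-releasing hormone, measured 79.1 and 50.1 CPM against 5.95 and 8.51 (3.02 ± 0.33) and was in 50.8% and 29.3% of the Moxd1 nuclei. *Ltbp1*, which holds latent TGF-beta in the matrix, measured 215 and 149 against 38.3 and 31.5 (2.34 ± 0.19), and *Kitl*, the ligand of the receptor Kit, 100.3 and 114 against 20.5 and 27.7 (2.11 ± 0.23). *Tmtc4*, an O-mannosyltransferase of the endoplasmic reticulum, had a log2 fold change of 2.44 ± 0.27, *1110004F10Rik*, a coding gene, of 2.03 ± 0.19, and *Gm17171*, an antisense RNA whose reads may be shared with an overlapping gene, of 2.83 ± 0.35. All of these were called by both edgeR and DESeq2. In the same set, *Calb1* had 2.60 ± 0.17, *Tmem132c* 3.05 ± 0.18, *Tmem44* 2.58 ± 0.19 and *Rnf144b* 2.14 ± 0.19, as a description.

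By the same rule, which leaves out genes found in fewer of the comparison nuclei such as *Vip*, 10 genes were named on the lower side, first *Adarb2*. *Adra1b*, the alpha-1B adrenergic receptor, had 2 UMIs in the Moxd1 nuclei against 212, a ratio of 0.0227 (0.00273 to 0.083). Of channels, *Trpm3*, a cation channel, measured 69.2 and 175 CPM against 1016 and 1298 (-3.32 ± 0.17), and *Kcnq5*, a subunit of the M-type potassium channel, 201 and 321 against 1677 and 2467 (-3.02 ± 0.15). *Cadps2*, a factor for dense-core vesicle release, measured 84.7 and 67.9 against 537 and 630.5 (-2.96 ± 0.18). *Rgs12*, a regulator of G-protein signalling, had -3.38 ± 0.34, *Crim1*, a membrane protein that binds bone morphogenetic proteins, -2.84 ± 0.26 (-4.04 in library 2 and -1.98 in library 3), *Parm1* -2.97 ± 0.23, and *Zfhx3*, a homeobox factor, -2.98 ± 0.22. The Moxd1 nuclei were below the comparison in both libraries for each of these genes, which the rule required. *Meis2*, a homeobox factor of striatal-type and intercalated neurons, measured 8.47 and 111 against 434 and 379.9 CPM, and its difference was uneven (-5.61 in library 2 and -1.77 in library 3). It was called by edgeR only (-2.83 ± 0.19, DESeq2 adjusted p = 0.22). *Foxp2*, limited to at most 2 UMIs by the rule, was in 0% and 17.4% of the Moxd1 nuclei, and its part in the difference between the libraries was not tested.

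Glutamate receptor genes were found among both the higher and the lower genes. Of 24 genes, 22 were tested, of which 6 were higher, 4 lower and 12 neither, with a median of -0.20, and DESeq2 called the same numbers, while without the block 4 kept their higher and 4 their lower call. AMPA receptor subunits were among the higher genes. *Gria4* measured 4360.5 and 4531 CPM in the Moxd1 nuclei against 1478 and 1948 (1.37 ± 0.13, adjusted p = 4.6e-23, edgeR), *Gria1* 6013 and 5596 against 2368 and 2514 (1.23 ± 0.13) and *Gria3* 1356 and 1441 against 672 and 833 (0.88 ± 0.14). *Gria2*, the subunit that limits calcium entry, was not called (0.03 ± 0.14). *Grik3*, a kainate receptor subunit, measured 501 and 482 against 206 and 177 (1.35 ± 0.16), *Grin3a*, an NMDA receptor subunit, had 0.80 ± 0.15 and the metabotropic receptor *Grm5* 0.63 ± 0.13. *Gria3* and *Grm5* lost the call without the block. Among the lower genes were *Grid1*, a delta receptor (-0.86 ± 0.15), *Grik4*, a kainate receptor subunit (-1.18 ± 0.18), and the metabotropic receptor *Grm3* (-1.23 ± 0.19). Both libraries of Moxd1 nuclei lay on 1 side of both comparison sums for *Gria1*, *Gria4* and *Grik3*, which were above, and for *Grid1*, *Grik4* and *Grm3*, which were below.

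Genes of GABA transport and GABA receptors moved in both directions. Of 18 listed genes, 15 were tested apart from *Gad1* and *Gad2*, of which 3 were higher and 4 lower, and DESeq2 called none higher and 2 lower, while without the block 2 kept their higher and 2 their lower call. *Gabra4* measured 153 and 161 against 90.5 and 112 CPM and was higher by edgeR only (0.61 ± 0.18), with the call lost without the block and after thinning. *Gabra5*, the subunit of extrasynaptic receptors, measured 15.5 and 12.3 against 56.8 and 54 (-2.02 ± 0.32) and *Gabrg3* 501 and 566 against 1200.2 and 1442 (-1.33 ± 0.14), both lower by both tests. *Slc32a1*, the vesicular GABA transporter, was not called (0.27 ± 0.39).

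**Figure D4:**
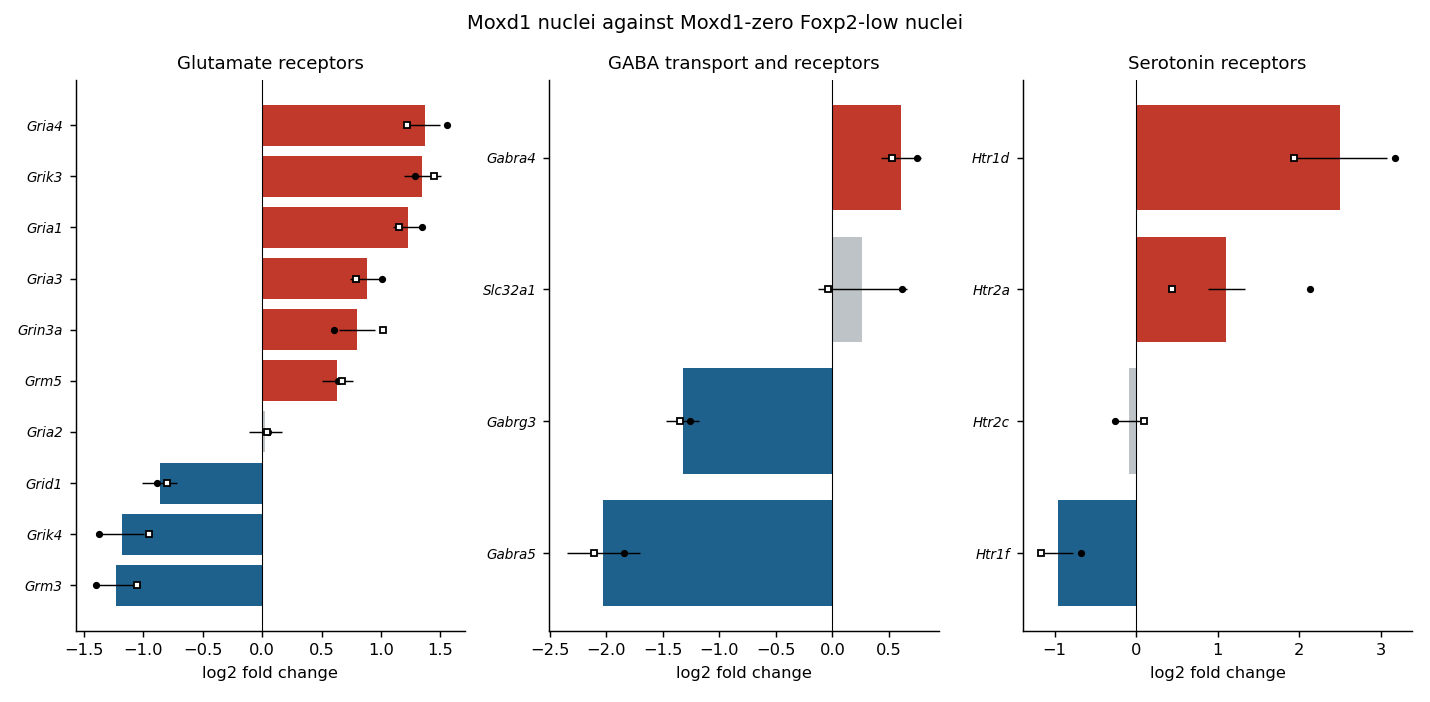
Log2 fold change of the receptor and transporter genes named in the text (horizontal axis) in Moxd1 nuclei against Moxd1-zero Foxp2-low nuclei, with bars for the edgeR estimate, lines for its SE, filled points for library 2 and open squares for library 3. Red and blue bars were called higher and lower by edgeR, and *Gria4*, *Grik3* and *Gria1* top the glutamate receptors shown while *Gabra5* and *Gabrg3* are lowest among the GABA receptors shown.

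Among serotonin receptors, 6 of 11 were tested. *Htr1d* was higher at 15.5 and 12.3 against 1.32 and 2.98 CPM (2.50 ± 0.58, edgeR, with no adjusted p from DESeq2), a low level found in 11.9% and 10.9% of the Moxd1 nuclei. *Htr1f* measured 138 and 116 against 221 and 262 (-0.95 ± 0.17, lower by edgeR only), and *Htr2c*, found in 78% and 83.7% of the Moxd1 nuclei, was not called (-0.09 ± 0.15). Of the acetylcholine receptors, *Chrm2* (9.88 and 51.2 against 142 and 90.6 CPM, -1.81 ± 0.22) and *Chrna7* (-1.16 ± 0.19) were lower by edgeR only, and *Chrm3* was not called (-0.10 ± 0.14). The difference of *Chrm2* was uneven (-3.79 in library 2 and -0.82 in library 3), and it lost its call with 1 comparison nucleus per Moxd1 nucleus (adjusted p = 0.056) and after thinning (0.0501). Of the 14 opioid and peptide receptors, 7 were tested, none was higher and 2 were lower by edgeR. These were *Npy1r*, a neuropeptide Y receptor with 1 UMI against 42, and *Tacr1*, the substance P receptor (-1.04 ± 0.30), and DESeq2 called neither. The value of *Tacr1* rested on library 2 (-2.17 in library 2 and -0.23 in library 3), and its call was lost without the block (adjusted p = 0.078) and with 1 comparison nucleus per Moxd1 nucleus (0.17). *Oprm1*, the mu opioid receptor, was in 37.3% and 34.8% of the Moxd1 nuclei and was not called (-0.11 ± 0.21).

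Of the genes of fast-spiking neurons, *Kcnc2* was higher by both tests. *Kcnc2*, the Kv3.2 potassium channel, measured 2697 and 2500.4 CPM against 951 and 1026 (1.37 ± 0.14, adjusted p = 6.4e-22, edgeR), and both libraries of Moxd1 nuclei were above both of the comparison. *Kcnc1*, Kv3.1, measured 219 and 128 against 129.5 and 105 (0.51 ± 0.17) and *Cplx1*, complexin of the release machinery, 67.8 and 78 against 31.1 and 46.8 (0.87 ± 0.23), both by edgeR only, and the library levels of *Kcnc1* overlapped between the groups (0.75 in library 2 and 0.29 in library 3). *Kcnc1* lost its call without the block (adjusted p = 0.2), without the filter on low counts (0.15) and with 1 comparison nucleus per Moxd1 nucleus (0.2), and *Cplx1* without the block (0.057) and after thinning (0.21). Of 13 genes on the list of fast-spiking channels and perineuronal nets, 9 were tested, 3 were higher, none lower, and the median was 0.40. *Scn1a* (0.28 ± 0.15), *Kcna1* (0.40 ± 0.28) and the net component *Hapln1* (-0.48 ± 0.44) were not called, and *Acan* was too low to be tested (3.39% and 2.17%).

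Of the 13 neuropeptide genes, 7 were tested, of which 3 were higher (*Sst*, *Crhbp* and *Tac1*) and 3 lower (*Vip*, *Cck* and *Penk*) by edgeR, with a median of 0.30, while DESeq2 called 1 higher (*Crhbp*) and 1 lower (*Vip*). *Penk*, the enkephalin precursor, was lower by edgeR only (-5.40 in library 2 and -2.23 in library 3). *Tac1*, the precursor of substance P, was in 10.2% and 7.61% of the Moxd1 nuclei at 12.7 and 10 against 1.32 and 2.13 CPM (2.55 ± 0.64, edgeR, with no adjusted p from DESeq2). *Npy*, which many Sst interneurons make, was in 11.9% and 18.5% and was not called (0.30 ± 0.33). Of the copper monooxygenase family and the catecholamine enzymes, *Pam*, which amidates peptides, measured 997 and 922 against 526 and 609.7 CPM (0.74 ± 0.14, adjusted p = 4.3e-06, edgeR, lost without the block, adjusted p = 0.094), while *Dbh* and *Th* had no UMI in the Moxd1 nuclei. In the Tmem132 family, only *Tmem132c* was called higher, and *Tmem132e* was lower (-1.74 ± 0.39, edgeR only, lost after thinning, adjusted p = 0.097). Of 11 cadherins, 1 (*Cdh4*, 0.57 ± 0.15, lost without the block, adjusted p = 0.16) was higher and 7 were lower, all by edgeR only, among them *Cdh20* (-1.18 ± 0.20). Of the 7 lower cadherins, 2 kept their call without the block and 3 after thinning. *Erbb4*, the neuregulin receptor of interneurons, measured 8126 and 6690.4 against 6539 and 7857 and was not called (0.02 ± 0.12), and its ligand gene *Nrg1* was lower (484 and 1115 against 2182 and 2886, -1.78 ± 0.14).

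Genes of neighbouring amygdala and striatal neurons were more often lower than higher by edgeR. Of 14 genes of striatal-type and intercalated neurons, 8 were tested apart from *Foxp2*, of which 6 were lower and 1, *Pde10a* (1973 and 1971 against 1502 and 1302 CPM, 0.48 ± 0.13, lost without the block, adjusted p = 0.45), higher by edgeR, and DESeq2 called none. Of the 6 lower genes, 2 kept their call without the block and 3 after thinning. *Tshz1*, a factor of intercalated neurons, measured 16.9 and 18.9 against 60.1 and 50.2 (-1.61 ± 0.30), and *Ppp1r1b*, *Adora2a* and *Isl1* had no UMI in the Moxd1 nuclei. Of the 5 central amygdala genes, 3 were tested, and all 3 were lower by edgeR and none by DESeq2. Of these 3, 2 kept their call without the block and 1 after thinning. *Prkcd* was in 1.69% and 3.26% of the Moxd1 nuclei, and *Wfs1* had 1 UMI against 43. Of the 8 steroid receptors and medial amygdala genes, 5 were tested. None was higher, 2 were lower by edgeR and 1 by DESeq2, and 1 kept its call without the block and 1 after thinning. *Nr3c2*, the mineralocorticoid receptor, measured 192 and 228 against 507 and 633 (-1.46 ± 0.16, adjusted p = 3.5e-18, edgeR), *Esr1* was in 13.6% and 8.7% and was not called (-0.35 ± 0.33), and *Cyp19a1*, the aromatase, was in 0% and 1.09%.

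Genes of oligodendrocytes and their precursors were lower in the Moxd1 nuclei than in the comparison nuclei. The 4 oligodendrocyte genes summed to 87.5 and 65.7 CPM, most of it from *Mbp* (66.4 and 41.2, log2 fold change -0.58 in library 2 and -1.27 in library 3), against 206 and 185 in the Moxd1-zero Foxp2-low nuclei and 14096 and 13162 in oligodendrocyte nuclei. All 3 that were tested were lower by edgeR, and 1 by DESeq2. *Mbp* was called by edgeR only and lost its call after thinning (adjusted p = 0.35). The 3 genes of oligodendrocyte precursors summed to 26.8 and 15.6 CPM against 182 and 84.2, with *Vcan* the most abundant, *Pdgfra* at 2 UMIs against 106 and *Cspg4* at 1 against 87, and all 3 were lower by both tests. The comparison nuclei thus held more RNA of these cells, and its part in the other differences was not tested. *Aqp4* had 3 UMIs and *Gfap* none in the Moxd1 nuclei, microglial genes summed to 38.1 and 21.2 CPM against 37.7 and 13.2, and *Cldn5* of vessels was at 0. *Camk2a*, more abundant in glutamatergic nuclei (952 and 638 CPM), measured 474 and 349.7 and was not called (0.08 ± 0.15).

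Against all depth-matched nuclei without *Moxd1*, *Foxp2*-rich ones included, 718 genes were higher (7.68% of 9352 tested) and 973 lower (10.4%) by edgeR. The nuclei were well matched in depth, at medians of 10260 and 8235 UMIs. *Sox6* measured 237 and 236 CPM in this comparison group (2.75 ± 0.12), *Il1rapl2* 261 and 376 (3.46 ± 0.12) and *Calb1* 58 and 66.1 (3.01 ± 0.14). *Meis2*, at 1338 and 1763 CPM, had -4.81 ± 0.25 (-7.25 in library 2 and -3.99 in library 3), and *Tshz1*, at 225 and 244, -3.73 ± 0.21. Since the rule removed *Foxp2*-rich nuclei from one side only, these last values partly restate it. This comparison shares the Moxd1 sums with the main one and is given for its values only.

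The nuclei with *Calb1* but no *Moxd1* carried *Adarb2*, which the Moxd1 nuclei largely lacked. There were 21 in library 2 and 39 in library 3, with at least 2 *Calb1* and fewer than 3 *Foxp2* UMIs, and *Calb1* measured 459.6 and 478 CPM in them against 477 and 550.2 in the Moxd1 nuclei. They had *Adarb2* at 11097 and 10993 CPM (-6.55 ± 0.21, adjusted p = 1.1e-199, edgeR) and *Sox6* at 434 and 779 (1.43 ± 0.19, adjusted p = 4.4e-12). Of 6340 genes tested, 190 (3% of those tested) were higher and 264 (4.16%) lower in the Moxd1 nuclei. *Tmem44* (236 and 174 against 75.8 and 31.4 CPM, 2.03 ± 0.31), *Rnf144b* (1.98 ± 0.33) and *Tmem132c* (1.82 ± 0.24) were higher also here, as a description. The value of *Rnf144b* was uneven (2.65 in library 2 and 1.64 in library 3). *Sst* was higher by edgeR (30.3 and 31.4 CPM, 1.99 ± 0.36, adjusted p = 2.0e-06) but not by DESeq2 (0.17), and was uneven (1.18 in library 2 and 2.33 in library 3). *Lhx6* (0.58 ± 0.38, -0.04 in library 2 and 1.20 in library 3) and *Htr2a* (0.78 ± 0.34, 3.93 in library 2 and -0.02 in library 3) were not called, and the libraries disagreed in sign for both.

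Further genes were named by size against the Calb1 nuclei. Higher in the Moxd1 nuclei were *Olfm3*, a secreted olfactomedin (205 and 219 against 15.2 and 49.4 CPM, 2.53 ± 0.32), *Ano5*, an anoctamin (2.41 ± 0.66), *Map3k20*, a stress-activated kinase (2.36 ± 0.66), *Lmo4*, a LIM-only factor (2.25 ± 0.57), and the antisense RNA *Junos* (2.33 ± 0.61). *Olfm3* was not called against Moxd1-zero Foxp2-low nuclei (0.02 ± 0.16) and was lower against all Moxd1-zero nuclei (-1.53 ± 0.13, adjusted p = 2.4e-11, edgeR). *Ano5*, *Map3k20*, *Lmo4* and *Junos* lost the call without the block and had no adjusted p from DESeq2. In library 3 alone, the log2 fold changes were 1.67 for *Lmo4* and 1.76 for both *Map3k20* and *Junos*, against 4.92 to 5.29 in library 2. Lower were *Frem1*, an extracellular matrix protein with 2 UMIs against 141, *4930467D21Rik*, a noncoding RNA with 2 against 65, *Npas1* with 2 against 59, *Syt6*, a synaptotagmin (0 and 7.8 against 424 and 199.8 CPM, edgeR only), and *Ror1*, a Wnt receptor (2.82 and 12.3 against 308 and 155 CPM, -4.73 ± 0.36).

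The nuclei with *Sst* but no *Moxd1* had *Sox6* and *Lhx6* at a similar order of size but less of the marker genes. There were 14 in library 2 and 20 in library 3, with at least 2 *Sst* and fewer than 3 *Foxp2* UMIs, and the minimum of 20 per library for a test was not met. *Sox6* measured 1241 and 1399.6 CPM in them against 1474 and 1788, and *Lhx6* 78 and 82.7 against 70.6 and 57.9. *Calb1* measured 63.8 and 116 against 477 and 550.2, *Tmem132c* 78 and 55.1 against 452 and 409.9, *Tmem44* 28.4 and 27.6 against 236 and 174, and *Rnf144b* 21.3 and 27.6 against 168 and 143, so all 4 were lower in both libraries of Sst nuclei. *Adarb2* was at 1156 and 248 CPM and uneven between the libraries. *Chrm2* measured 1042 and 413 CPM in the Sst nuclei against 9.88 and 51.2, and *Kcnc2* 1779 and 1427 against 2697 and 2500.4.

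**Figure D5:**
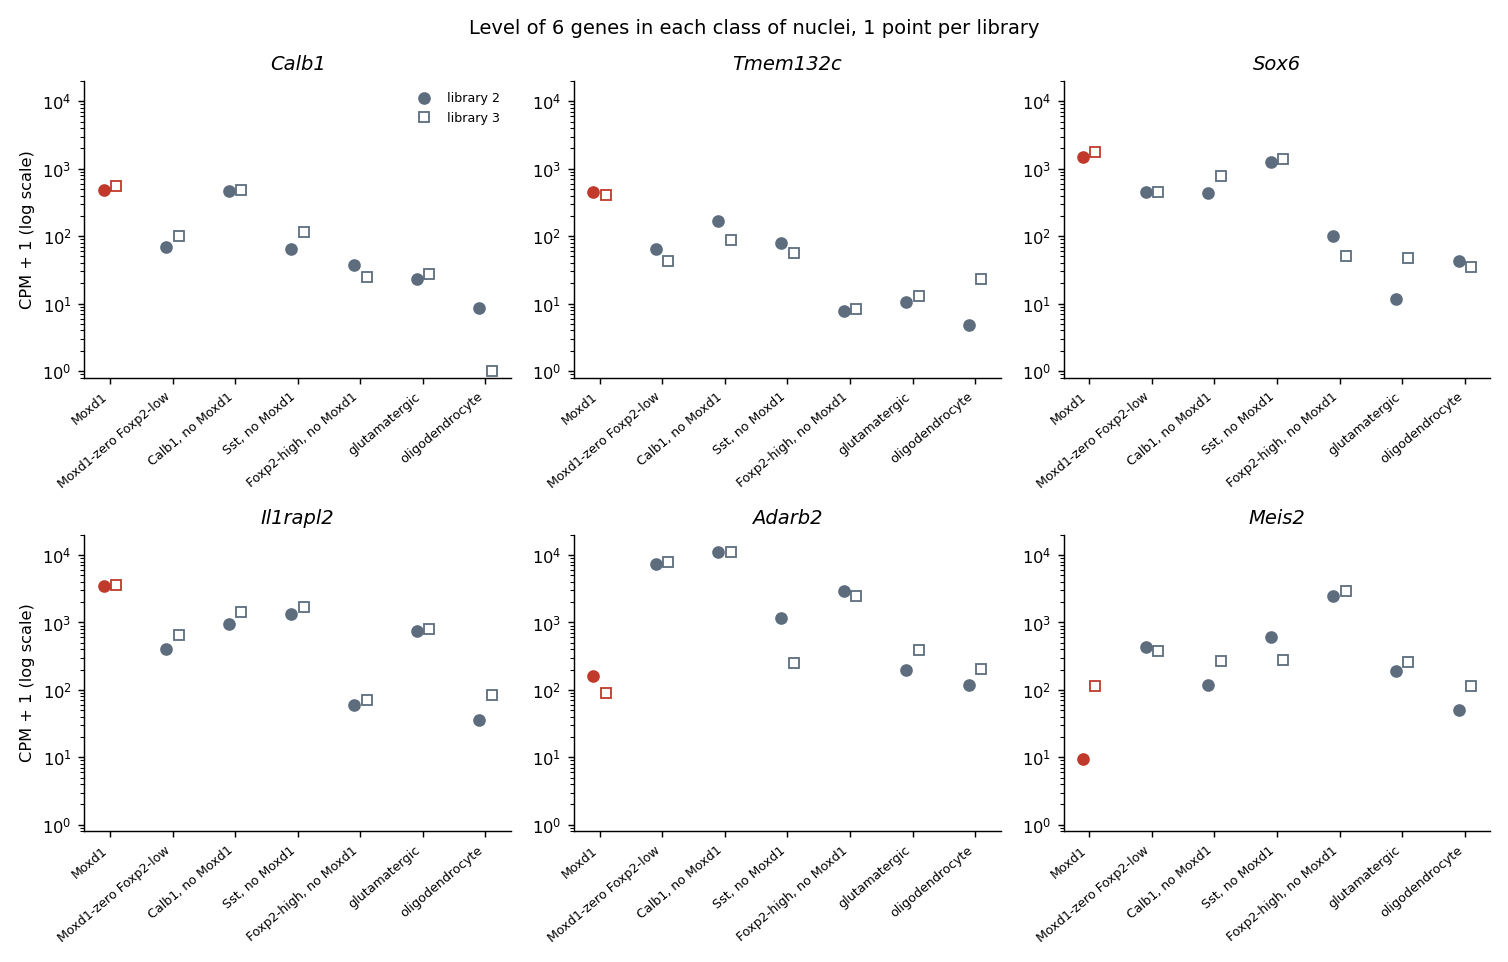
Level of 6 genes (vertical axis, CPM + 1 on a log scale) in Moxd1 nuclei (red) and in 6 other classes of nuclei (grey), with a filled point for library 2 and an open square for library 3. *Sox6* was at 1241 and 1399.6 CPM in Sst nuclei and 1474 and 1788 in the Moxd1 nuclei, *Calb1* at 459.6 and 478 in the Calb1 nuclei it selected, and *Adarb2* was lower in the Moxd1 nuclei than in all other classes of both libraries except the oligodendrocyte nuclei of library 2.

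Within the Moxd1 nuclei, *Sst* went with other genes, which were chosen after their values were seen. *Npy* was in 4 of 14 nuclei with and 3 of 45 without *Sst* in library 2, and in 14 of 33 nuclei with and 3 of 59 without it in library 3. *Rnf144b* was in 5 of 14 nuclei with and 31 of 45 without *Sst* in library 2, and in 12 of 33 nuclei with and 41 of 59 without it in library 3. *Npy* was thus more frequent and *Rnf144b* less frequent among the *Sst* nuclei of both libraries, although the *Sst* nuclei were the deeper ones (medians 11078 against 10353 UMIs in library 2 and 10698 against 7872 in library 3). *Satb1* was in 7 of 14 nuclei with and 15 of 45 without *Sst* in library 2 and in 17 of 33 nuclei with and 17 of 59 without it in library 3. No Moxd1 nucleus had both *Pvalb* and *Sst*. *Calb1* did not follow this split, with 11 of 14 nuclei with and 38 of 45 without *Sst* in library 2 and 32 of 33 nuclei with and 53 of 59 without it in library 3.

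*Htr2a* and *Sst* were found together in 10 Moxd1 nuclei of library 2 and 6 of library 3, and the libraries went opposite ways. In library 2, *Sst* was in 10 of 33 nuclei with and 4 of 26 without *Htr2a*, and in library 3 in 6 of 34 nuclei with and 27 of 58 without it. Nuclei with *Htr2a* were deeper in both libraries (medians 12248 against 7048 and 10386 against 7178 UMIs). *Tmem44* was in 27 of 33 nuclei with and 19 of 26 without *Htr2a* in library 2 and in 26 of 34 nuclei with and 35 of 58 without it in library 3. *Lhx6* was in 16 of 33 nuclei with and 10 of 26 without *Htr2a* in library 2 and in 16 of 34 nuclei with and 19 of 58 without it in library 3. Nuclei of 1 library are not replicates, so these shares carry no test.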

How the data were processed

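The files deposited by the authors hold unnormalized UMI counts, as a separate gene-by-barcode matrix for every library, made with Cell Ranger 7.0.1 (mm10) per the labels from 10x 3' chemistry, with gene and barcode lists as other, non-numeric files deposited beside them. Members, lists and markers were chosen with earlier results of these data known. Intervals and limits cover counting error only. UMIs of each class were added up within a library, and edgeR 4.0.16 tested these sums (quasi-likelihood F test, TMM, its filter on low counts, library block, Benjamini-Hochberg, threshold 0.05) in R 4.3.3, which leaves 1 residual degree of freedom and borrows the spread from all genes. SE is the log2 fold change over the root of F. It does not measure the difference between libraries, since *Meis2* had an SE of 0.19 with -5.61 in library 2 and -1.77 in library 3. Alternatives, among them DESeq2 1.42.0, are in the closing section. On simulated counts for the main comparison, all of 50 genes raised 4-fold and 68% of 50 raised 2-fold were called. Of 50 genes lowered to 0.25, 78% were called, and of 50 lowered to 0.5, 42%, with 4 false calls. The simulation used the spread fitted to these data and gave the libraries no differences of their own. It therefore does not cover genes that differ between libraries. Doublets were treated only in the alternative with Scrublet (scanpy 1.11.5), which took the highest scores, their number growing with the size of the library, since its own threshold marked 1 nucleus in library 2. It removed 114 and 163 nuclei, of which 0 and 2 were Moxd1 nuclei. Oligodendrocyte nuclei had at least 1% of their UMIs in the oligodendrocyte genes, and glutamatergic nuclei at least 2 UMIs of *Slc17a7* or *Slc17a6*. Genes were named by a fixed rule: those that selected the nuclei, the markers and checks, the 15 highest and 10 lowest of the main comparison and 6 each way of the *Calb1* comparison in at least 20% of nuclei, and per list up to 4 called and 2 most abundant. Genes named by size also had to have the same direction in both libraries. Other genes were named after their values were seen. A few genes of the lists, counted in the totals, are not reported here.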

Additional observations from a re-analysis of the deposited data

Results flagged for a closer look

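Barcodes with *Moxd1* outside the selected nuclei were counted as data no comparison used. In library 1, 29 barcodes had at least 2 *Moxd1* UMIs, of which 26 had *Gad1* or *Gad2*. All 26 of these also had *Slc17a7* or *Slc17a6*, and none of the 29 was a Moxd1 nucleus. In libraries 2 and 3, 48 barcodes with at least 2 *Moxd1* UMIs had *Gad1* or *Gad2* and also a UMI of *Slc17a7* or *Slc17a6*, of which 17 rested on 1 such UMI. What these barcodes are was not tested.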

How the results depend on the processing

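Among the 130 values of single genes that were followed, no called difference changed sign under any alternative that was run. In 11 of them, none called, the sign changed, 10 of these with 1 library left out. Of all called genes, 1224 of 1229 went the same way in both libraries against Moxd1-zero Foxp2-low nuclei. The numbers were 1690 of 1691 against all Moxd1-zero nuclei and 448 of 454 against *Calb1* nuclei. Such agreement is no separate check, since the calls came from the same libraries. With DESeq2, 223 genes were higher and 321 lower against all Moxd1-zero nuclei (718 and 973 with edgeR), 116 and 189 against Moxd1-zero Foxp2-low nuclei (471 and 758), and 40 and 66 against *Calb1* nuclei (190 and 264). Without the block that pairs the classes of 1 library, the counts were 393 and 598, 241 and 469, and 53 and 124. The classes came from the same libraries, which is where the pairing comes from. With 1 comparison nucleus per Moxd1 nucleus they were 453 and 619, and 297 and 487, and after thinning 250 and 386 against Moxd1-zero Foxp2-low nuclei. With *Moxd1* at 3 or more UMIs, 626 genes were lower against all Moxd1-zero nuclei. Unadjusted p was under 0.05 for 2567, 1937 and 970 genes. The share of Moxd1 nuclei among GABAergic nuclei, 9.29% ± 0.647 (SD over 2 libraries), was 13.1% with *Moxd1* at 1 or more UMIs, 6.66% at 3 or more, 13.4% when *Gad1* and *Gad2* had at least 2 UMIs, and 6.20% with library 1 added, in which 0 Moxd1 nuclei left no fit to run. It ran from 8.84% to 9.75% when either library was left out. The hemoglobin filter changed no count in the comparisons with Moxd1-zero and Moxd1-zero Foxp2-low nuclei, and removal of high Scrublet scores gave counts within 1.5 times. With 1 library left out, 71 and 83 of 130 values of single genes moved by more than their SE. Of 109 called values, the fold changed by over 1.5 times with 1 library alone for 37. Of 123 values with an adjusted p from DESeq2, called or not in the main fit, 42 lost their call with DESeq2. Without the block, 21 of 130 values, called or not, lost theirs. A value that was not called could not lose a call, so these are not shares of the called values. Depth limits the low genes most, since 1 UMI in the Moxd1 nuclei of a library was 1.41 and 1.11 CPM. No test was run against the Sst nuclei, of which library 2 held 14.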
